A study of Mus musculus with 3 samples.

Results

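Alcohol dehydrogenases, retinal dehydrogenases and retinoic acid receptors were followed in C2C12 cultures depleted of Tead4, a transcription factor that binds DNA through its TEA domain. The 9 genes are Adh1, Adh5, Adh7, Aldh1a1, Aldh1a2, Aldh1a3, Rara, Rarb and Rarg, taken by symbol from a table of 20162 genes. They were chosen by measured values, namely their scaled counts in the shRNA A and shRNA B libraries, each set against the control library. Those values are therefore given as a description and with no test. Of the 9 genes, 7 passed the filter on low counts, and Aldh1a2 and Rarb had fewer than 10 reads in every library. Aldh1a1 passed the filter through the shRNA B library alone.

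C2C12 cells are mouse myoblasts, an established line whose cells form multinucleate myotubes in low serum. The groups were 2 populations that carried a lentivirus for a different short hairpin RNA (shRNA) against Tead4 (ShA and ShB, called shRNA A and shRNA B here), and 1 population with a control shRNA (ShSC). All 3 populations were selected with puromycin, kept in 10% fetal calf serum and then differentiated for 7 days in 2% horse serum. Each population gave 1 library of polyadenylated RNA, read as single-end 72-base reads, and the labels describe no repeat cultures.

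Vitamin A (retinol) is turned into the hormone retinoic acid by 2 oxidations. Alcohol dehydrogenases and short-chain dehydrogenases oxidise retinol to retinal, and retinal dehydrogenases oxidise retinal to retinoic acid, a step that is not reversed. Retinoic acid binds the receptors RARα, RARβ and RARγ, which sit on DNA as partners of RXR receptors at repeated half-sites, and the enzymes of the Cyp26 family break it down. Retinoic acid is known to act on the differentiation of myoblasts.

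The promoters of 3 of the genes show what lies at their start sites: Adh1, the gene with the largest ratio to control among those with at least 10 reads in the control library; Adh7, its neighbour on the chromosome; and Rarb, whose promoter holds the retinoid element. The sequences are RefSeq windows of 300 bases on GRCm38.p6, from 250 bases before to 50 after the start, written on the gene's own strand. Adh1 lies at chr3:138277335-138277634 (plus strand), Adh7 at chr3:138217523-138217822 (plus strand) and Rarb at chr14:16575427-16575726 (minus strand). Capitals mark the TEAD motif and the direct repeat defined below, and the first 2 windows hold neither.
Adh1: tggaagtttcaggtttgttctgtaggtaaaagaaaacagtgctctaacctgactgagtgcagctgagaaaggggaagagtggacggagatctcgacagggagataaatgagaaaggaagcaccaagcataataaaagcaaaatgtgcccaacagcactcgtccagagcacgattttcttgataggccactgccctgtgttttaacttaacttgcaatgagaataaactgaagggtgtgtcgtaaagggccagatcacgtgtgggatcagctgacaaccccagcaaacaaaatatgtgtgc
Adh7: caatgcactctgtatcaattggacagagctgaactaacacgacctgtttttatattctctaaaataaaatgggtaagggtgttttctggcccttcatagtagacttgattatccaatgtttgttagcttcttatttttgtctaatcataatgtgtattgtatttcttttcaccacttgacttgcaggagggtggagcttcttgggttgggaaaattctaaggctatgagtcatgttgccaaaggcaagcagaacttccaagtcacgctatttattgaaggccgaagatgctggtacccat
Rarb: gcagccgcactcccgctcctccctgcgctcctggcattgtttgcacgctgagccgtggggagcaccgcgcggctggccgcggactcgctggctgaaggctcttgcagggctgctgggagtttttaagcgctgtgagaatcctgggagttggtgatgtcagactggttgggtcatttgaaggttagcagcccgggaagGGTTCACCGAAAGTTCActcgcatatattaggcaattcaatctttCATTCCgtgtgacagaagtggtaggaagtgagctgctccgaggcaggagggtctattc

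The windows were searched on both strands for the TEAD motif GGAATG, which reads CATTCC on the other strand, and for direct repeats spaced by 1, 2 or 5 bases. The half-sites of a repeat were AGGTCA or AGTTCA, or the same with a first G, as in GGGTCA or GGTTCA. RefSeq windows were matched for 8 of the 9 genes, 14 windows in all. The Rarb window held the direct repeat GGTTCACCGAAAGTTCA, spaced by 5 bases, from base -53 to base -37 before the start site. This is the retinoic acid response element by which Rarb is known to be switched on by its own ligand. Repeats with this spacing were found in 0.0974% of all 32851 windows of 300 bases, and those spaced by 1 and by 2 in 0.222% and 0.268%. None of the other 13 windows held a repeat of any of the 3 spacings. The TEAD motif stood in 2 of the 14 windows, Rarb (from base -8 to -3) and the first window of Aldh1a1 (from base -168 to -163), beside 14.7% of all windows. A match is a run of letters in this window and does not show binding.

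**Figure D1:**
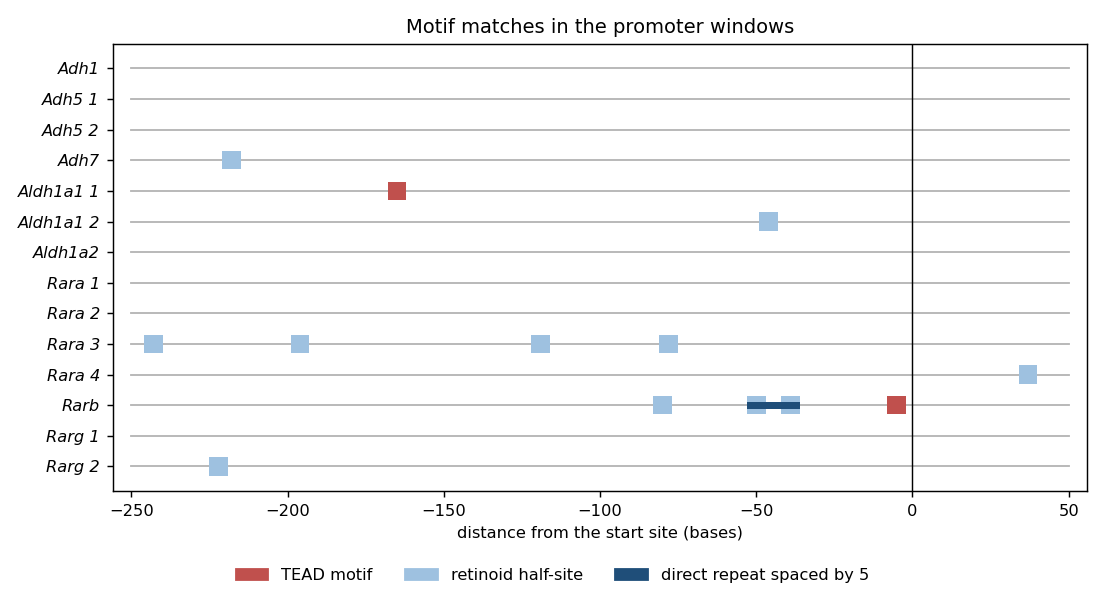
Motif matches in the 14 promoter windows of 8 genes, drawn by distance in bases from the start site (vertical line); windows of 1 gene are numbered. The direct repeat spaced by 5 (dark bar) and a TEAD motif lie in the Rarb window, and neither is in the Adh1 window.

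Among the alcohol dehydrogenases, Adh1 stood far higher with both Tead4 shRNAs, while Adh5 and Adh7 lay close to the control library. Adh1 codes for the class I enzyme, which oxidises ethanol and retinol and is abundant in liver. It had 284 reads with shRNA A and 182 reads with shRNA B, against 26 in the control library. On the scale of the TMM-normalized library (CPM) these were 14.1 and 11.5 CPM with shRNAs A and B, against 1.62 CPM with the control shRNA. Both shRNA libraries were high and the control library was low, with no overlap of their counting intervals. The ratio to control was 8.72-fold with shRNA A (95% exact interval 5.83 to 13.6) and 7.13-fold for shRNA B (4.71 to 11.2). On the log2 scale the ratios were 3.12 and 2.83. These intervals cover counting error only and treat reads as independent, which reads amplified by PCR are not. They leave out variation between cultures, and a ratio of 2 libraries has no replicate check.

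Adh1 was the only 1 of the 9 genes at least 2-fold higher in both shRNA libraries with both intervals above no change, beside 4.62% of the 14478 tested genes. None of the 9 was at least 2-fold lower in both, beside 3.10% of tested genes. Nothing is read from these counts, since the genes were proposed from the same ratios.

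Adh5, the class III enzyme, oxidises the glutathione adduct of formaldehyde and reduces S-nitrosoglutathione. It had 1803 reads with shRNA A and 1449 reads with shRNA B, against 1400 in the control library, or 89.6 and 92.0 CPM against 87.2 CPM. Its log2 ratios to control were 0.04 with shRNA A (-0.06 to 0.14) and 0.08 for shRNA B (-0.03 to 0.18). The 3 libraries were thus within counting error of each other. The wider of the 2 intervals reached 0.18 on the log2 scale, a limit for counting error alone that leaves out variation between cultures. Adh7, the class IV enzyme known for its activity on retinol, had 596 and 449 reads with shRNAs A and B, against 524 in the control library, or 29.6 and 28.5 CPM against 32.6 CPM. Both shRNA libraries were slightly low for Adh7, at log2 ratios of -0.14 (-0.31 to 0.03) and -0.20 (-0.38 to -0.01). The second interval excluded no change by a margin smaller than the largest shift, 0.047, of a ratio between TMM and another scaling.

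Adh1 took 10.6% of the reads of the 3 alcohol dehydrogenases with shRNA A (95% exact interval 9.45 to 11.8) and 8.75% for shRNA B (7.57 to 10.0), against 1.33% with the control shRNA (0.873 to 1.95). Adh5 held the largest share in every library, 67.2% and 69.7% with shRNAs A and B against 71.8% in the control. The summed level of the 3 genes was 133 CPM with shRNA A and 132.0 CPM with shRNA B, against 121 CPM with the control shRNA. These shares are of reads and are not corrected for transcript length.

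**Figure D2:**
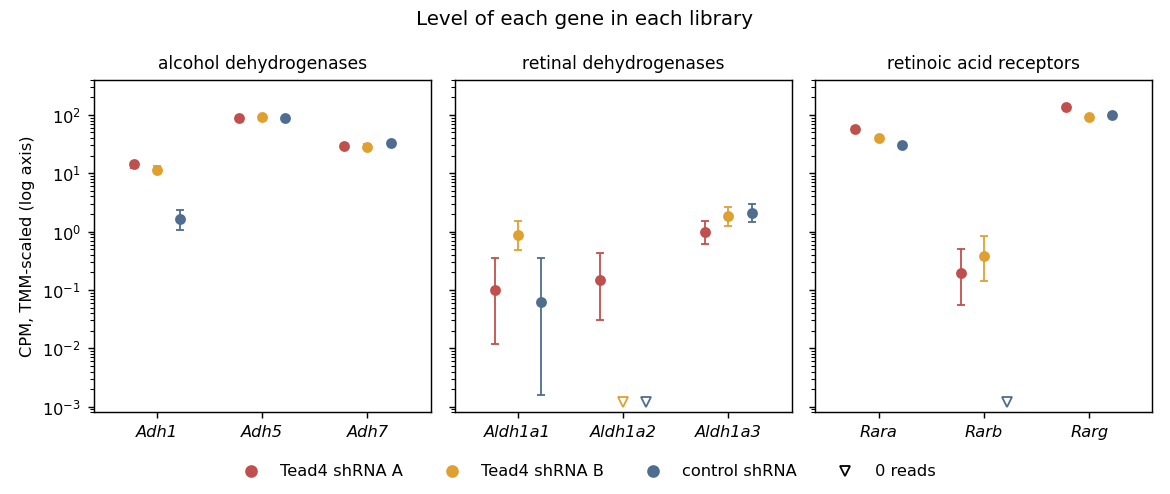
Level of each of the 9 genes in each library, in TMM-scaled CPM on a log axis, with 95% exact Poisson intervals of the read count as bars; open triangles at the bottom mark 0 reads. Adh1 stands at 14.1 and 11.5 CPM in the shRNA libraries and 1.62 CPM in the control library, and the retinal dehydrogenases lie at or below 2.12 CPM in every library.

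Adh7, Adh1 and Adh5 lie in 1 cluster on chromosome 3, with Adh6a, Adh6b and Adh4, which were not analysed here, between Adh1 and Adh5 in the RefSeq gene order. Along the stretch of 18 protein-coding genes that spans the cluster and 6 genes on each side, 10 genes other than Adh1 were tested. Their log2 ratios to control ran from -0.70 to 0.26 with shRNA A and from -0.53 to 0.14 with shRNA B. Adh1, at 3.12 and 2.83, was the single gene of this stretch with a ratio of 2-fold or more among those tested. Metap1 and Eif4e, which follow Adh5, had edgeR log2 fold changes of -0.34 (adjusted p = 0.416) and -0.27 (adjusted p = 0.556). Adh1 also overlaps, exon on exon, an antisense transcript (Gm16559) in the GENCODE annotation, and Adh7 overlaps another (0610031O16Rik); the library kit does not mark strand, so such reads cannot be told apart.

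**Figure D3:**
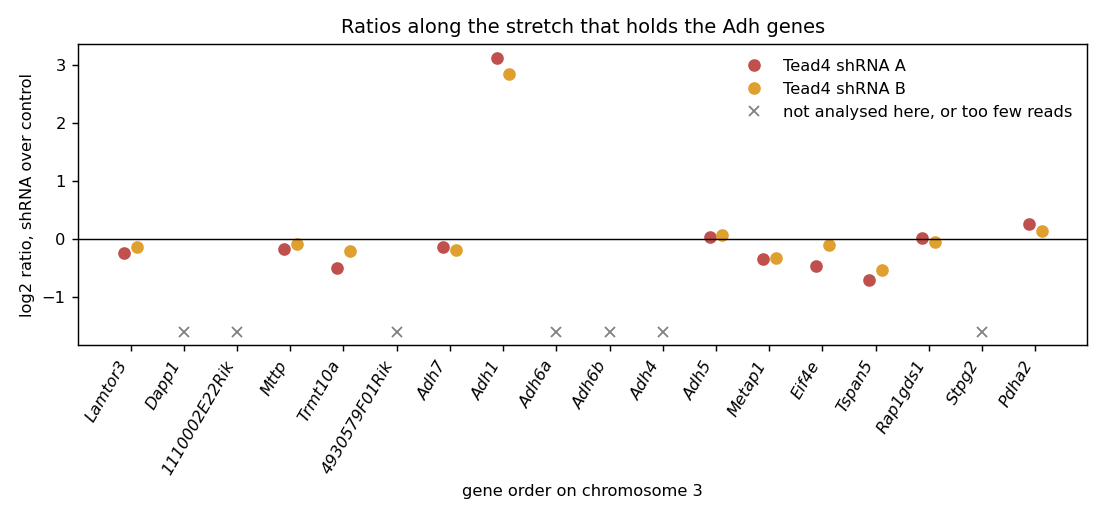
Log2 ratio of scaled counts to the control library for shRNA A and shRNA B, for 18 neighbouring genes in their order on chromosome 3; crosses mark genes not analysed here or with too few reads. Adh1 lies at 3.12 and 2.83, and the other 10 tested genes lie between -0.70 and 0.26.

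Of all other genes with a mean of at least 5 CPM (11180), the 3 whose pair of log2 ratios lay nearest to that of Adh1 were Plk1, Prelp and Kif2c. The measure is the Euclidean distance between the shRNA A and shRNA B ratios, over 3 libraries of which the control is shared. Plk1, a kinase of mitosis, lay at a distance of 0.201, with 231 and 144 reads with shRNAs A and B against 23 in the control library. Prelp, a matrix proteoglycan, lay at 0.206 (2309 and 1235 reads against 202) and Kif2c, a microtubule depolymerase of mitosis, at 0.275 (167 and 139 reads against 18).

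The retinal dehydrogenases were scarce in all libraries. Aldh1a3 (RALDH3) had 20 reads with shRNA A and 29 reads with shRNA B, against 34 in the control library, or 0.994 and 1.84 CPM against 2.12 CPM. The shRNA A library was lowest and the shRNA B library lay within counting error of the control. The log2 ratios were -1.09 with shRNA A (-1.97 to -0.25) and -0.20 for shRNA B (-0.97 to 0.56).

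Aldh1a1 (RALDH1) was nearly absent from 2 libraries, with 2 reads with shRNA A and 14 reads with shRNA B, against 1 in the control library. The log2 ratio of shRNA B to control was 3.83 with an interval from 1.12 to 9.24, and no ratio is given for shRNA A, where neither library had more than 3 reads. Aldh1a7, a close copy of Aldh1a1 that lies next to it, had 0 reads with shRNA A and 2 reads with shRNA B, against 0 in the control library, and how reads that fit both genes were counted is not given in the sources used here. Aldh1a2 (RALDH2), the main source of retinoic acid in the embryo, had 3 reads with shRNA A and 0 reads with shRNA B, against 0 in the control library. Its upper 95% Poisson limits were 8.77 reads with shRNA A and 3.69 reads in each of the other libraries, so a difference in Aldh1a2 was not detectable at this depth.

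Together the 3 retinal dehydrogenases gave 25 reads with shRNA A and 43 reads with shRNA B, against 35 in the control library. The log2 ratios of these sums to control were -0.81 (-1.61 to -0.03) and 0.32 (-0.35 to 1.01), in opposite directions.

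Among the receptors, Rara was higher than control with both shRNAs, Rarg moved apart with the 2 shRNAs, and Rarb was barely detected. Rara, which codes for RARα, had 1166 reads with shRNA A and 623 reads with shRNA B, against 485 in the control library, or 58.0 and 39.5 CPM against 30.2 CPM. The control library was lowest, and the shRNA A library stood well above the shRNA B library. The log2 ratios to control were 0.94 with shRNA A (0.79 to 1.10) and 0.39 for shRNA B (0.21 to 0.56), both short of 2-fold. Rara and Adh1 were the 2 of 9 genes whose intervals with both shRNAs lay above no change, beside 21.7% of tested genes, and 0 lay below it with both, beside 21.4%.

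Rarg, which codes for RARγ, had 2795 reads with shRNA A and 1436 reads with shRNA B, against 1629 in the control library, or 139 and 91.1 CPM against 101 CPM. The shRNA A library was above the control and the shRNA B library below it. The log2 ratios were 0.45 (0.37 to 0.54) with shRNA A and -0.15 (-0.26 to -0.05) with shRNA B, each with an interval that excluded no change.

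Rarb, whose promoter carries the direct repeat shown above, had 4 reads with shRNA A and 6 reads with shRNA B, against 0 in the control library, which allows up to 3 reads. With so few reads no fold is read from Rarb. The gene also overlaps, exon on exon and on the opposite strand, Top2b in the GENCODE annotation. Top2b, a DNA topoisomerase, had 4095 and 2687 reads with shRNAs A and B against 2485 in the control library, and without strand its reads and those of Rarb cannot be told apart where they overlap.

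Rara took 29.4% of receptor reads with shRNA A (28.0 to 30.9) and 30.2% for shRNA B (28.2 to 32.2), against 22.9% with the control shRNA (21.2 to 24.8). This share was near equal in the 2 shRNA libraries, although the summed receptor level was 197 CPM with shRNA A and 131 CPM with shRNA B, against 132 CPM with the control shRNA.

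**Figure D4:**
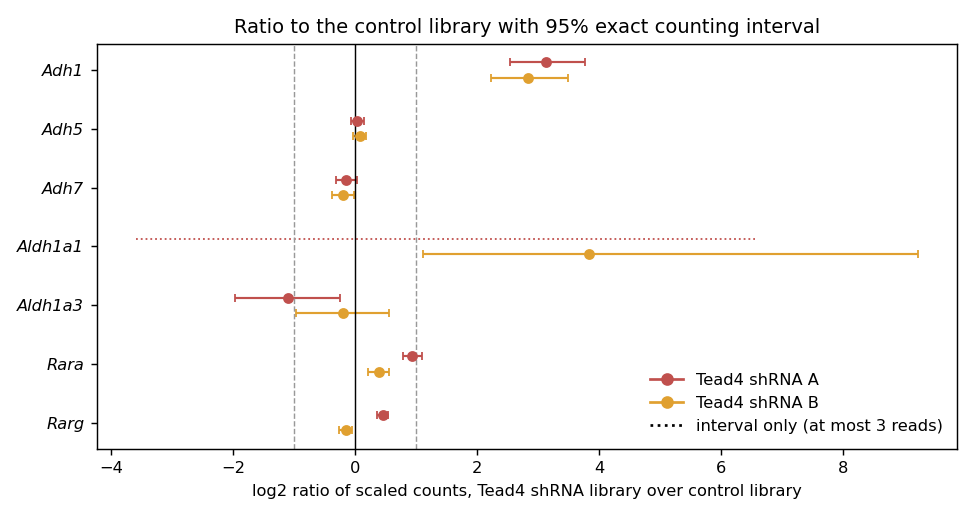
Log2 ratio of scaled counts to the control library for shRNA A and shRNA B, with 95% exact counting intervals, for the 7 genes that reached 10 reads in a library; dashed lines mark 2-fold. Both Adh1 ratios lie past 2-fold, Rarg lies on opposite sides of 0, and a dotted line shows an interval where no ratio is given.

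The 2 shRNA libraries were also set directly against each other. The log2 ratio of shRNA A to shRNA B was 0.55 for Rara (0.41 to 0.69) and 0.61 for Rarg (0.52 to 0.70). It was 0.29 for Adh1 (0.02 to 0.57), -0.04 for Adh5 (-0.14 to 0.06) and 0.06 for Adh7 (-0.12 to 0.24), and of these 3 intervals that of Adh1 excluded no change. Aldh1a1, with 2 reads against 14, was the only 1 of the 9 at least 2-fold lower with shRNA A than with shRNA B (log2 ratio -3.16, -6.34 to -1.04), beside 2.25% of tested genes, and 0 were at least 2-fold higher, beside 2.16%. As Aldh1a1 passed the filter on low counts through its shRNA B reads alone, nothing is read from these counts. Aldh1a3 lay at -0.89 (-1.79 to -0.02).

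Levels of different genes were compared per kilobase of merged GENCODE exons (RPKM), a length that may not be the one the authors counted over. Rarg was highest of the 9 in every library, at 32.6 and 21.4 RPKM with shRNAs A and B and 23.8 RPKM in the control, and Adh5 followed at 16.6 and 17.0 against 16.1 RPKM. Rara (13.3 and 9.06 RPKM with shRNAs A and B, 6.92 RPKM in the control) and Adh7 (7.82 and 7.52 against 8.62 RPKM) changed places between the shRNA and control libraries, so their order does not hold beyond the spread of the libraries. Adh1 came next at 6.32 and 5.17 RPKM with shRNAs A and B, against 0.725 RPKM in the control library. Aldh1a3 stood at 0.215 and 0.399 against 0.459 RPKM, and the remaining 3 genes at or below 0.180 RPKM.

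Other genes of the pathway, listed by function, were tested with edgeR's quasi-likelihood test with Benjamini-Hochberg adjustment, both Tead4 shRNA libraries against the control library. Of 50 tested genes in 6 lists, 2 rose and 3 fell, a share near that of all genes: 5.34% rose and 4.48% fell among all 14478 tested genes (9.82% in either direction). Their median log2 fold change was 0.0045, beside 0.017 over all tested genes. The test leaves 1 residual degree of freedom, and its spread is that between 2 different shRNAs. An edgeR likelihood-ratio test that took the dispersion from the 3 libraries pooled called 0 of the 50 genes and 0 genes in the whole table, with 3 and 540 at an unadjusted p under 0.05. That dispersion also counts any difference between the shRNA and control libraries as spread, so these 0 calls decide nothing.

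The other aldehyde dehydrogenases held 3 of these calls. Aldh3a1, which oxidises aromatic and lipid aldehydes, had 1319 reads with shRNA A and 767 reads with shRNA B, against 245 in the control library, and rose by a log2 fold change of 1.91 (SE 0.27, edgeR adjusted p = 4.90e-05). Aldh18a1, which makes a precursor of proline, had 1092 and 693 reads with shRNAs A and B, against 3359 in the control library, and fell by 2.09 on the log2 scale (SE 0.22, adjusted p = 8.87e-07). Aldh1l2, a mitochondrial folate enzyme, had 939 and 1023 reads against 2156 in the control library and fell by 1.27 (SE 0.23, adjusted p = 6.84e-04). These 3 of 14 tested members (1 rose, 2 fell) act on substrates other than retinal, and the median of the list was 0.11. Aldh1b1 and Aldh8a1, which can oxidise retinal, had at most 1 read in any library.

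Of 11 tested oxidoreductases of retinol and retinal, 1 fell and 0 rose, and the list's median was -0.19 on the log2 scale. Dhrs7, a short-chain dehydrogenase, fell by 0.81 (SE 0.23, adjusted p = 0.0271), with 443 reads with shRNA A and 390 reads with shRNA B against 657 in the control library; DESeq2 ended this call (adjusted p = 0.129). Rdh10, which oxidises retinol to retinal, had a log2 fold change of 0.22 (SE 0.24), and Dhrs3, which reduces retinal to retinol, had 0.11 (SE 0.28), with ratios of 0.48 with shRNA A and -0.40 with shRNA B; both were named after their values were seen. Adhfe1, the single other alcohol dehydrogenase with a row, had 4 and 1 reads with shRNAs A and B against 3 in the control library and was not tested.

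Carriers and breakdown enzymes gave no call with the filter on low counts. Crabp2, which carries retinoic acid to the nucleus, had 1556 and 1002 reads with shRNAs A and B against 885 in the control library (log2 fold change 0.36, SE 0.23, adjusted p = 0.398). Cyp26a1 and Cyp26b1 had log2 fold changes of -0.03 (SE 0.76) and 0.06 (SE 0.48). They rested on 20 and 21 reads against 19 in the control library for Cyp26a1 and 58 and 49 against 46 for Cyp26b1.

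The RXR partners of the receptors were named after their values were seen. Rxra (log2 fold change 0.31, SE 0.23) and Rxrb (-0.55, SE 0.22) did not pass, and Rxrg had 3 and 5 reads with shRNAs A and B against 0 in the control library. Of 15 tested genes known to be induced by retinoic acid, 0 rose and 0 fell with edgeR, and the median log2 fold change was 0.063. The 2 of this list with the most reads were Tgm2, a transglutaminase (-0.06, SE 0.22), and Crabp2.

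**Figure D5:**
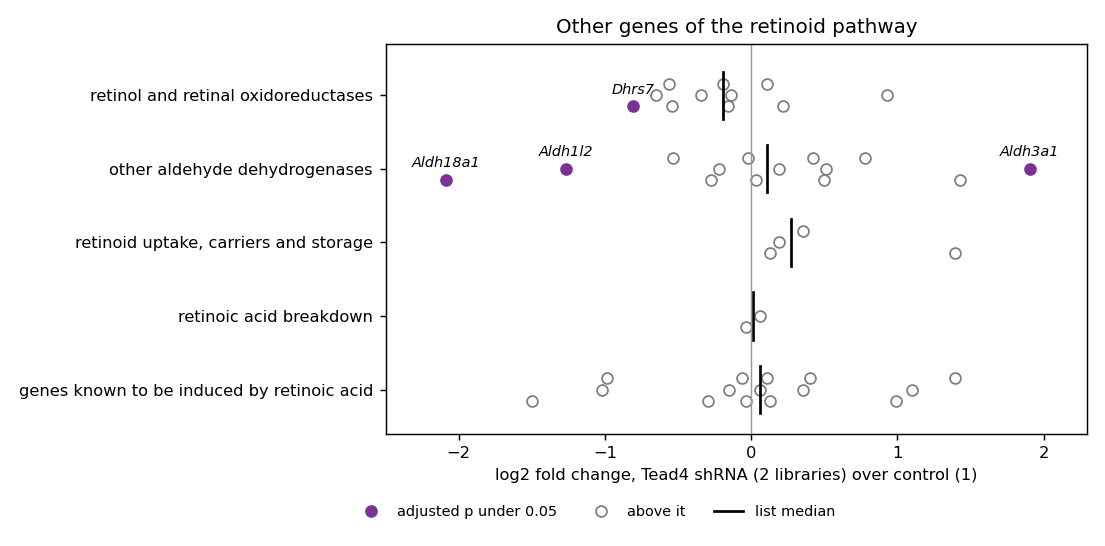
Log2 fold change of the tested genes of 5 lists, 2 Tead4 shRNA libraries over 1 control library; filled points had an edgeR adjusted p under 0.05 and black bars are list medians. Aldh18a1, Aldh1l2 and Dhrs7 lie on the low side, Aldh3a1 on the high side, and the medians lie between -0.19 and 0.27.

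Of the 31 genes next to a member on its chromosome (2 on each side, members left out), 19 were tested, 2 rose and 0 fell. Among all 14478 tested genes 5.34% rose and 4.48% fell, and nothing is read from the count of neighbours. Lrrk1, a kinase gene beside Aldh1a3, rose by 0.90 (SE 0.26, adjusted p = 0.0277) and Espl1, which codes for separase and lies 2 genes from Rarg, rose by 1.93 (SE 0.40, adjusted p = 0.00293). Aldh1a3 itself had log2 ratios to control of -1.09 with shRNA A and -0.20 with shRNA B, the latter within counting error. Rarg had 0.45 with shRNA A and -0.15 with shRNA B.

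The labels held for the targeted gene: Tead4 had 397 and 170 reads with shRNAs A and B, against 1256 in the control library (log2 fold change -2.35, SE 0.27), and its level with shRNA A exceeded that with shRNA B by 0.87 on the log2 scale. The libraries held 19918954 counted reads with shRNA A and 15594305 for shRNA B, against 16412139 in the control library. Of the 12 myotube markers 6 fell and 0 rose, and their summed level was 15011 CPM with shRNA A and 17823 CPM with shRNA B, against 25451 CPM with the control shRNA. All 10 markers of dividing cells rose (303 and 305 CPM with shRNAs A and B, against 107 CPM), as did 4 of 6 tested smooth muscle markers (4137 and 3214 CPM, against 1712 CPM). Among 9 tested markers of undifferentiated myoblasts and reserve cells, Cd34, Hes1, Id1 and Spry1 rose and Myf5 fell. Myf5 had 261 and 264 reads with shRNAs A and B, against 608 in the control library. This list summed to 444 and 477 CPM, against 360 CPM. Sdc4, which was not called, held 242 and 251 CPM of these sums, against 217 CPM. Of 7 tested fibroblast markers 0 rose and 2 fell, and the list summed to 4215 CPM with shRNA A, 2564 CPM with shRNA B and 2765 CPM with the control shRNA. Col3a1, which was not called, held most of each sum, at 2838 and 1646 CPM with shRNAs A and B, against 1582 CPM. The 2 that fell were Dcn (174 and 189 CPM, against 340 CPM) and Postn (104 and 94.3 CPM, against 190 CPM). Of 3 tested adipocyte markers Cebpa rose, at 86.8 and 73.6 CPM against 82.1 CPM in sum, and Fabp4 had at most 1 read. Hepatocyte markers, looked at because Adh1 is a liver enzyme, summed to 1.29 and 0.381 CPM with shRNAs A and B, against 0.498 CPM, with Serpina1a at 0 in all 3 libraries. The part of these shifts in the values of Adh1, Rara and Rarg was not tested, and in a bulk library fewer cells of a type and less RNA per cell cannot be told apart.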

How the data were processed

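Raw counts per Ensembl gene and a normalized score per library come from the authors' deposited table; per the file headers the columns are raw and normalized. The normalized score is the raw count times a constant for the library (0.801 for shRNA A, 1.02 for shRNA B, 1.00 for the control) rounded, with 0 exceptions. Per the submitters' processing notes, TopHat 1.0.12, Cufflinks 0.8.2, DESeq and mm9 were used; the read counter and annotation are not given in the sources used here.

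Genes passing filterByExpr (14478) were scaled by TMM and tested with edgeR 4.0.16 in R 4.3.3 (quasi-likelihood, Benjamini-Hochberg over all tested genes, threshold 0.05), with 2 Tead4 shRNA libraries against 1 control. Standard errors (SE) are the absolute log2 fold change over the square root of F. Nothing in the labels describes repeat cultures, so a p-value reflects only how these libraries vary. That spread lies between populations with 2 different shRNAs and may be partly technical, and the control was assumed to vary like them. The spread of each gene was drawn toward that of all genes, with 20.9 prior degrees of freedom against 1 residual. Ratios of 2 libraries carry 95% Clopper-Pearson intervals. For a library with 0 reads a floor of 3 counts was used, and no ratio is given where neither library exceeds it. DESeq2 1.42.0 and limma 3.58.1 were alternatives. The fits were tested on simulated data.

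The members and lists were chosen with earlier results of these data known. Named were all members, Tead4, the 4 called genes per list with the highest CPM (2 where none was called), 2 neighbours on each side and the 3 nearest patterns of each gene 2-fold changed in both libraries. Of 80 listed pathway symbols 69 matched a row, and 18701 identifiers matched GENCODE M21, used for names, order, overlaps and exon lengths only, with RefSeq. Some genes that this rule names are not reported here.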

Additional observations from a re-analysis of the deposited data

How the results depend on the processing

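Scaling by RLE, upper quartile or total counts, and the authors' normalized values, left the counts of 2-fold changed members as reported, and of these the 3 scalings shifted a log2 ratio by at most 0.047 from its TMM value. A fold threshold of 1.5 also left the counts of members changed in both shRNA libraries as they were. The comparison of shRNA A with shRNA B was not recounted at that threshold. The calls of Aldh18a1, Aldh1l2 and Aldh3a1 held under the 3 scalings, no filter, DESeq2 and limma-voom. With no filter on low counts 5 pathway genes rose in place of 2 (Aldh7a1 and Aldh5a1 were among those added), and with total counts Aldh7a1 was added. DESeq2 called 464 genes higher and 374 lower over the whole table, in place of 773 and 649. A likelihood-ratio test with the dispersion of all 3 libraries as 1 group, chosen after seeing the data, ended every call, Tead4 included (adjusted p = 0.885): it called 0 and 0 over all genes and 0 and 0 pathway genes, with 540 and 3 at an unadjusted p under 0.05. That dispersion includes any difference between the shRNA and control libraries. With 1 shRNA library left out no test remains, and genes at least 2-fold changed in the other were counted. Those counts were 928 to 1258 higher over all genes, 3 to 5 higher pathway genes, 1 to 3 higher members and 0 to 1 lower members. Without shRNA A the higher members were Adh1, Aldh1a1 and Rarb, all but Adh1 with at most 14 reads. Rarb reached 2-fold (2.04) with the 0 reads of the control library set to the floor of 3 counts, and no fold is read from it. Without shRNA B the lower member was Aldh1a3. No paired analysis was possible because there was 1 control library and the labels give no pairing of cultures. Depth limits Aldh1a1, Aldh1a2, Aldh1a3 and Rarb, each under 35 reads in every library.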
